A study of Mus musculus with 18 samples.

Results

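The 9 HECT ubiquitin ligases described here are Itch, Nedd4, Nedd4l, Smurf1, Smurf2, Wwp1, Wwp2, Huwe1 and Ube3a, taken by symbol from a table of expression in mouse kidney as long genes of the HECT family. They are 9 of the 19545 rows of that table, and all 9 were among the 12385 genes that reached at least 1 FPKM in at least 3 samples and were tested. FPKM is a read count scaled by transcript length and by the mapped reads of the library, so levels can be set side by side between genes. Kidneys of ICR mice, an outbred stock, were sequenced at an age of 10 weeks in 6 groups of 3 samples. The groups were a control, AOS at 10 mg/kg, HS (a high fat diet with STZ, the usual short form of streptozotocin, a toxin of insulin-producing cells), HS_AOS (the same diet and STZ with AOS at 10 mg/kg), HS_AOS_FMT (diet and STZ with the FMT named for AOS at 10 mg/kg) and HS_control_FMT (diet and STZ with the FMT named for the control). FMT ordinarily stands for fecal microbiota transplantation, and the stated purpose was to follow its effects on kidneys damaged by the diet and STZ. The diet and STZ are therefore shared by 4 of the 6 groups. Nothing in the labels states that samples within a group are different animals, and p-values here reflect the variation among samples only. The 9 were chosen by family and transcript length with earlier FPKM differences of these data known, and which of those differences counted is not recorded. Calls among them are therefore a description and lend no support to the choice.

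HECT ligases are enzymes that take activated ubiquitin from an E2 enzyme onto a cysteine of their own HECT domain and pass it to a substrate, which is then often degraded or taken up from the membrane. Itch, Nedd4, Nedd4l, Smurf1, Smurf2, Wwp1 and Wwp2 belong to the NEDD4 family, which binds short proline-rich motifs through WW domains. In the kidney, Nedd4l is best known for removing the epithelial sodium channel from the surface of distal tubule cells, and the Smurf proteins for limiting signals of TGF-beta and BMP receptors. Huwe1 is a very large ligase of nuclear and cytoplasmic proteins such as Mcl1, and Ube3a, the gene of Angelman syndrome, is imprinted in neurons.

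Close relatives in the family, such as Itch, Wwp1 and Wwp2, encode nearly the same active site with different base composition, which is why a short stretch around the catalytic cysteine is shown for 3 close relatives and for the member richest in A and T. Each line holds 93 coding bases read 5′ to 3′ on the gene's own strand from GRCm38 (mm10), with the cysteine codon in capitals, and each stretch crosses an intron that is left out. The stretch of Wwp1 lies in exons 24 and 25 (chr4:19611768-19618331, minus strand), that of Itch in exons 25 and 26 (chr2:155220234-155224412, plus strand), that of Wwp2 in exons 23 and 24 (chr8:107556738-107556932, plus strand) and that of Ube3a in exons 12 and 13 (chr7:59303786-59304876, plus strand).
Wwp1: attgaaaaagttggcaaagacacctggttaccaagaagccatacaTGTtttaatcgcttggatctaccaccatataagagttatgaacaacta
Itch: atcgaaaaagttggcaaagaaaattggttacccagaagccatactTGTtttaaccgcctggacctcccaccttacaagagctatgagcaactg
Wwp2: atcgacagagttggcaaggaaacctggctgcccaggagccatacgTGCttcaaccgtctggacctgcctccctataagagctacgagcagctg
Ube3a: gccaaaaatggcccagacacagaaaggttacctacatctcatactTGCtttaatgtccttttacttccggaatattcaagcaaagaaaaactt
Wwp1 and Wwp2 encoded the same amino acid at 90.3% of these codons but shared 74.2% of the bases. The GC content at the third codon position was 25.8% in Wwp1, 48.4% in Itch and 77.4% in Wwp2. Ube3a, whose stretch encoded the same amino acid as Itch at 48.4% of codons, also had 25.8% GC at the third position.

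The same contrast held over whole transcripts. The longest GENCODE transcript had a GC content of 36.9% in Ube3a, 39.6% in Wwp1, 42.1% in Itch, 45.9% in Nedd4, 46.1% in Nedd4l, 46.7% in Smurf2 and 48.1% in Huwe1. Wwp2 (55.3%) and Smurf1 (55.5%) lay on the other side of the median of 49.8% over the 12253 tested genes with a transcript. All 9 were longer than the median of 3285 bases. Their lengths ran from 4314 bases in Wwp2 and 5309 bases in Itch to 9856 bases in Ube3a and 14579 bases in Huwe1, which is longer than 99.6% of tested genes. Exons of Ube3a overlap Snhg14 on the other strand, and exons of Wwp1 overlap Gm12353. Whether the counting used strand is not given in the sources used here, so reads from these partners cannot be told apart from those of Ube3a and Wwp1.

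**Figure D1:**
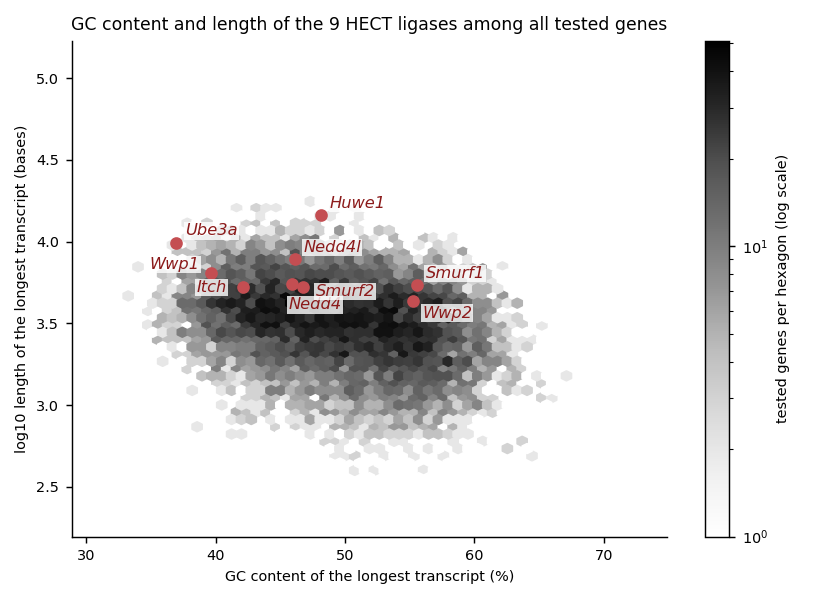
GC content (x axis, %) against log10 length in bases (y axis) of the longest transcript of each tested gene, as grey hexagons whose shade gives the number of genes on a log scale, with the 9 HECT ligases as red points. All 9 lie above the median length of 3285 bases, 7 of them left of the median GC content of 49.8%, while Wwp2 and Smurf1 lie to its right.

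Nedd4 had the highest mean level of the 9 over the 18 samples (65.0 FPKM, from 54.3 to 85.95), followed by Wwp1 (47.1 FPKM, from 33.86 to 65.15). Itch (20.7 FPKM), Huwe1 (18.8), Wwp2 (16.3), Smurf2 (14.7), Ube3a (11.9) and Nedd4l (9.73) followed, and Smurf1 was lowest (4.14 FPKM, from 2.93 to 5.75). The sample ranges of neighbours in this order overlapped except at 2 places: every Wwp1 value was above every Itch value, and every Nedd4l value was above every Smurf1 value. Among the family members outside the 9, the levels of Ube3b (34.3 FPKM) and Trip12 (26.5) were among the highest. In bulk tissue, fewer cells of a type and less RNA per cell cannot be told apart.

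Itch, which ubiquitinates Jun proteins and is named for the itching of mice that lack it, was the member with the clearest group pattern. Its level was 18.23, 19.16 and 21.6 FPKM in the controls and 16.74, 17.17 and 17.18 FPKM in the AOS samples. It was 20.11, 16.26 and 17.4 FPKM in HS and 25.96, 29.42 and 27.01 FPKM in HS_AOS. With FMT it was 21.36, 25.38 and 22.1 FPKM in HS_AOS_FMT and 20.27, 19.69 and 18.38 FPKM in HS_control_FMT. The 3 HS_AOS samples were thus the 3 highest of the 18, and the HS_AOS_FMT samples lay above every HS and every HS_control_FMT sample.

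Nedd4, the founding member of its family, was at 55.63, 58.51 and 85.95 FPKM in the controls, 60.02, 55.57 and 54.39 FPKM in AOS and 67.28, 55.72 and 60.96 FPKM in HS. It was at 76.2, 75.89 and 74.52 FPKM in HS_AOS, 65.75, 73.2 and 68.76 FPKM in HS_AOS_FMT and 67.46, 60.56 and 54.3 FPKM in HS_control_FMT. HS_AOS lay wholly above HS, and 1 control sample, control 3, was the highest of all 18. That library also had the lowest Wwp1 (33.86 FPKM) and the lowest Smurf2 (11.69 FPKM) of all.

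Wwp1, a close relative of Itch, was at 46.94, 38.09 and 40.57 FPKM in HS and 50.77, 51.16 and 65.15 FPKM in HS_AOS. Huwe1 was at 17.06, 17.56 and 16.33 FPKM in HS, 19.7, 20.28 and 20.65 FPKM in HS_AOS, 19.54, 22.31 and 20.21 FPKM in HS_AOS_FMT and 18.8, 18.81 and 18.14 FPKM in HS_control_FMT. For both genes every HS_AOS sample was above every HS sample. Smurf1 was at 4.09, 4.71 and 4.22 FPKM in HS, 4.56, 5.75 and 3.91 FPKM in HS_AOS_FMT and 3.35, 3.61 and 2.93 FPKM in HS_control_FMT, its lowest group. Ube3a was at 11.36, 11.57 and 11.49 FPKM in HS, 10.5, 11.91 and 14.66 FPKM in HS_AOS and 14.63, 13.91 and 12.12 FPKM in HS_control_FMT, so its HS_AOS samples lay on both sides of HS. Nedd4l stayed between 8.46 and 11.39 FPKM, Wwp2 between 13.93 and 18.66 FPKM and Smurf2 between 11.69 and 17.04 FPKM over all 18 samples.

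**Figure D2:**
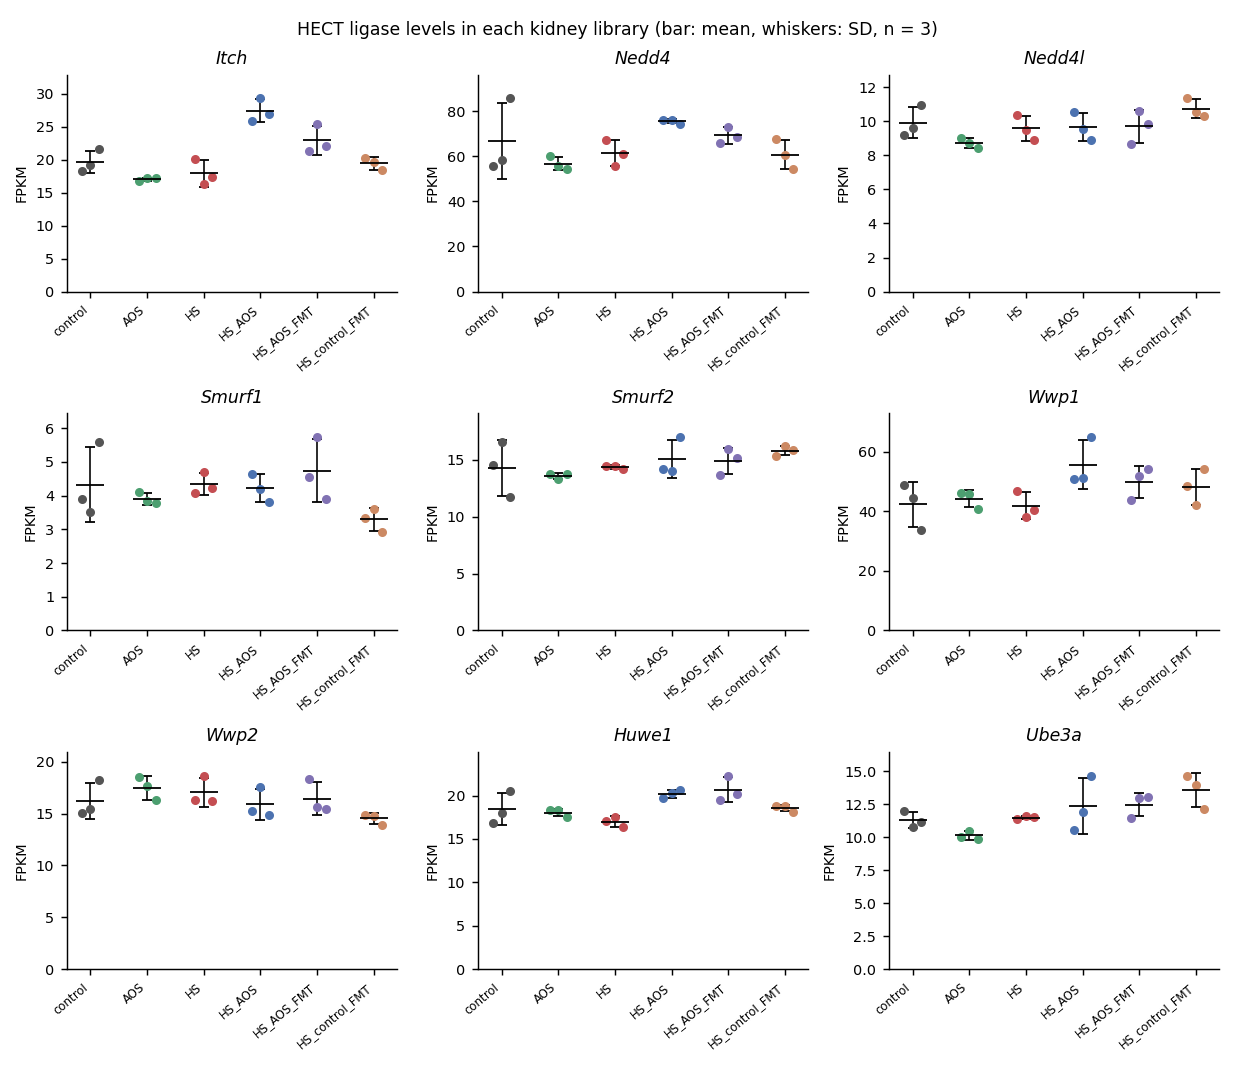
Level in FPKM (y axis, from 0) of each HECT ligase in the 3 samples of each of the 6 groups, with points for samples, a bar for the mean and whiskers for the SD. Itch in HS_AOS (25.96 to 29.42 FPKM) lies above all other groups, while Nedd4 in control 3 (85.95 FPKM) stands above every other Nedd4 value.

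The libraries differed in how expression ran with GC content and transcript length over all genes. The median of the ligases ran with a fitted trend that also holds each library's general level. For each library, the deviation of log2(FPKM + 1) from the gene's mean over the 18 samples was ranked against GC content over 12244 tested genes outside the 9. Spearman's rho was 0.21, 0.33 and 0.29 in HS, 0.11, -0.24 and -0.59 in HS_AOS and -0.09, -0.14 and -0.41 in HS_AOS_FMT. With length, rho was -0.17, -0.17 and -0.30 in HS, 0.01, 0.27 and 0.29 in HS_AOS and 0.16, 0.36 and 0.30 in HS_AOS_FMT. In AOS, rho was 0.16, 0.13 and 0.13 with GC content and -0.16, -0.20 and -0.13 with length. In the controls it was 0.05, -0.05 and 0.17 with GC content and -0.17, 0.03 and -0.10 with length. Long genes poor in GC, as 7 of the 9 ligases are, were thus read relatively high in most HS_AOS and HS_AOS_FMT libraries. They were read relatively low in HS and in AOS, while the controls differed among themselves. In HS_control_FMT rho lay near 0 for both features, between -0.02 and 0.00 with GC content and between -0.05 and 0.02 with length.

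A smooth trend in both features, fitted to each library without the 9, gave the deviation expected at each ligase's own GC content and length. The fit also holds each library's general level, so expected values do not reflect GC content and length alone. In HS_control_FMT 3, rho was near 0 for GC content (-0.005) and length (-0.054), yet the median expected was -0.157. Over the 18 libraries, the median deviation of the ligases and the median expected correlated with Pearson's r = 0.890 and Spearman's rho = 0.878. Without HS_AOS_FMT 2 and control 3, the libraries farthest from the middle, r was 0.865. Both medians come from the same libraries, so this is a description. The single ligases differed: r between observed and expected was 0.893 for Nedd4, 0.872 for Huwe1, 0.847 for Smurf1 and 0.820 for Itch, but 0.666 for Ube3a, 0.401 for Wwp2, 0.391 for Wwp1, 0.360 for Nedd4l and -0.017 for Smurf2. Removing the trend took away 75.8% of the variance of Huwe1 over the 18 samples, 63.0% of that of Nedd4 and 51.7% of that of Itch. It took away 61.2% for Smurf1, 42.4% for Ube3a and 13.3% for Wwp1. The SD of Smurf2 went the other way, from 0.123 to 0.155 on the log2 scale, as did that of Nedd4l, from 0.117 to 0.125. For Wwp2 the SD did not fall (0.125 before and after).

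**Figure D3:**
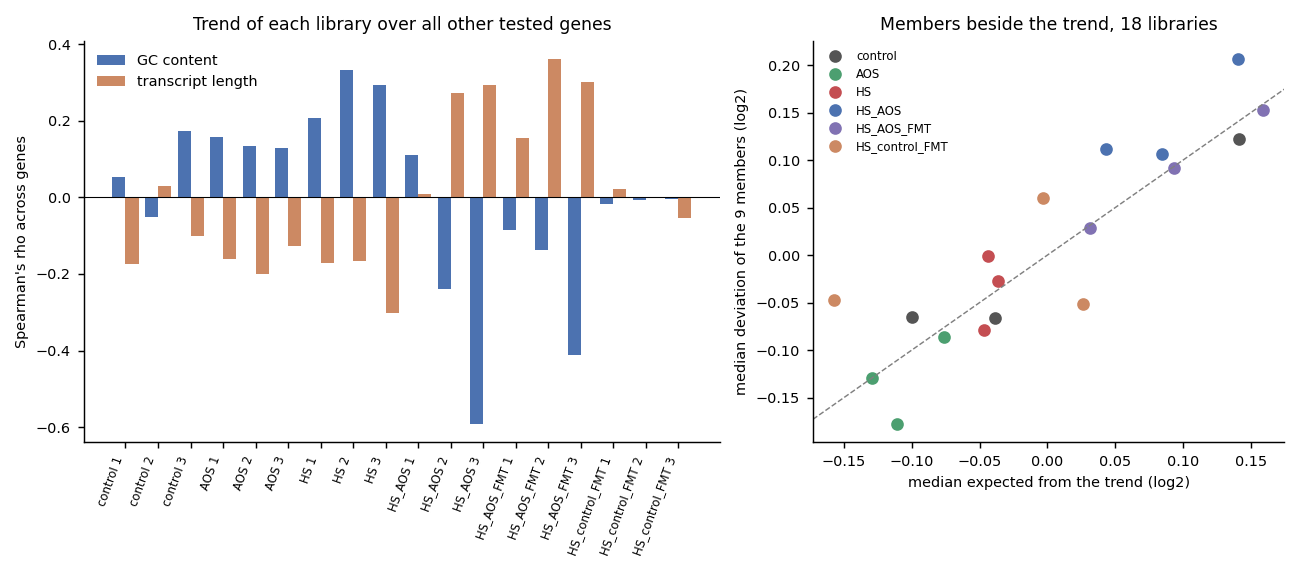
Left, Spearman's rho of each library's deviations with GC content (blue) and with transcript length (orange) over 12244 genes. Right, the median deviation of the 9 ligases (y axis, log2) against the median expected from the fitted trend (x axis, log2), which includes each library's level. Each library is 1 point coloured by group, with the line of equality dashed. HS_AOS 3 has the most negative rho with GC content (-0.59), and the points follow the line with r = 0.890.

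The comparison of HS_AOS with HS asked how AOS changed the kidney under the diet and STZ. Itch rose in it by 0.59 on the log2(FPKM + 1) scale (SE 0.0905, adjusted p = 0.0150, limma with Benjamini-Hochberg adjustment over all tested genes), from 17.9 ± 1.98 to 27.5 ± 1.77 FPKM (SD, n = 3 each), and was the only ligase of the 9 that was called. Over all tested genes 2.3% were called. Values for Wwp1 (0.40, SE 0.141), Nedd4 (0.30, SE 0.131) and Huwe1 (0.24, SE 0.0734) did not pass the threshold (adjusted p = 0.133, 0.212 and 0.0920, limma). Itch, Nedd4, Wwp1 and Huwe1 had groups that did not overlap, all 4 higher in HS_AOS, where 13.6% of all tested genes lay wholly above HS. The other 5 ran from -0.10 in Wwp2 to 0.09 in Ube3a, and the median over the 9 was 0.09, beside 0.01 over all tested genes.

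The library trends predicted a difference of the observed sign for all 9 in this comparison, with a median of 0.14 and 0.16 for Itch. With the trend removed the median over the 9 was 0.02, and Itch differed by 0.43 (SE 0.0785, adjusted p = 0.0429, limma), beside 0.155% of all genes called. In the single libraries, Itch then deviated from its mean by 0.03, -0.26 and -0.17 in HS and by 0.29, 0.42 and 0.18 in HS_AOS. The Itch call was lost with only these groups in the fit (adjusted p = 0.205, limma), without HS 2 (0.0681), without HS 3 (0.0837) and without the 3 libraries richest in adrenal transcripts (0.0551). In that order, 1 of 12385, 0 of 12361, 0 of 12328 and 0 of 12154 genes were called in all. The difference of Itch was 0.59, 0.53, 0.57 and 0.57. The Itch call was also lost when each library kept its mean level while the trend was removed (0.0792, limma), where 1 of 12253 genes was called. Summed erythroid markers, all 6 of them above 0, ran from 7079 to 15536 FPKM in HS and from 3241 to 4689 FPKM in HS_AOS, and their part in the result was not tested.

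The transplant groups came next, and they share the 3 HS libraries with the comparison above. In HS_AOS_FMT against HS none of the 9 was called (0.977% of all tested genes were), and 2 reached an unadjusted p under 0.05 in limma, as did 18.1% of all genes. These were Itch, at 0.34 (SE 0.0905, adjusted p = 0.0762), and Huwe1, at 0.27 (SE 0.0734, adjusted p = 0.0829). Both were also the ligases whose groups did not overlap, where 15.8% of all genes lay wholly above HS. The median over the 9 was 0.11, beside 0.00 over all genes, 0.14 expected from the trend and 0.05 after its removal. Smurf1 (0.09) and Nedd4l (0.01), the ligases best known for receptors and the sodium channel, had differences within their SE.

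In HS_control_FMT against HS the ligases split. None was called (0.751% of all genes were), and 3 had an unadjusted p under 0.05 in limma, as did 15.2% of all genes. Smurf1 was at -0.31 (SE 0.140), Wwp2 at -0.22 (SE 0.0957) and Ube3a at 0.22 (SE 0.101), with adjusted p = 0.306, 0.307 and 0.322. Groups did not overlap for 5 of the 9, beside 25.3% of all genes: Smurf2, Huwe1 and Ube3a were higher and Smurf1 and Wwp2 lower. The pair lower in HS_control_FMT were the 2 ligases richest in GC, for which the trend gave -0.10 and -0.11. For the other 7 it gave between -0.02 and 0.04. The trend includes each library's level, and the median over all genes was itself -0.08 here. The values of -0.10 and -0.11 therefore do not reflect GC content and length alone. The median over the 9 was 0.12, beside 0.01 expected from the trend and 0.11 after its removal.

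The direct comparison of both transplants, HS_AOS_FMT against HS_control_FMT, called none of the 9 while 3.99% of all genes were called. Smurf1 (0.41, SE 0.140, adjusted p = 0.113, limma) and Itch (0.23, SE 0.0905, adjusted p = 0.176) had an unadjusted p under 0.05, as did 19.8% of all genes. Itch, Smurf1, Wwp2 and Huwe1 lay wholly higher in HS_AOS_FMT, as did 21.8% of all genes. The trend, which includes each library's level, gave a rise for every ligase, between 0.09 and 0.17. The median over all genes was itself 0.07 here, so part of this rise is not particular to GC content and length. Nedd4l (-0.14), Ube3a (-0.11) and Smurf2 (-0.08) had the opposite sign. After its removal 2 were called, beside 3.72% of all genes: Smurf1 rose (0.31, adjusted p = 0.0466, limma) and Ube3a fell (-0.28, adjusted p = 0.0431). Both calls were absent when each library kept its mean level (adjusted p = 0.106 and 0.159).

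Without FMT or AOS, HS against control showed little in the 9. None was called and none had an unadjusted p under 0.05 in limma, beside 0.0646% and 6.63% of all genes, and no ligase had groups that did not overlap, beside 8.53% of all genes. Values ran from -0.13 in Itch to 0.07 in Wwp2, with a median of -0.01 beside 0.00 over all genes and -0.04 expected from the trend. Without HS 1 the median was -0.09.

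AOS against control, the treatment without diet or STZ, gave values from -0.21 in Nedd4 to 0.10 in Wwp2, and none was called (0.0646% of all genes were). Only Itch, at -0.19 (SE 0.0905, adjusted p = 0.674, limma), had an unadjusted p under 0.05, as did 7.28% of all genes. Itch, Nedd4l and Ube3a lay wholly lower in AOS, as did 10.1% of all genes. The median over the 9 was -0.10 and that over all genes -0.09, so the ligases stood where genes stood in general. Quantile normalization moved the median over all genes to 0.01 and that of the 9 to 0.03, so the sign of the family's difference changed with the scaling. The median over all genes was -0.01 without control 3, beside -0.14 without control 1 and -0.13 without control 2.

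The difference between both AOS effects, HS_AOS minus HS less AOS minus control, was 0.79 for Itch (SE 0.128, adjusted p = 0.0300, limma), with AOS lower than control and HS_AOS higher than HS in Itch. It was the only ligase called, and 0.0727% of all genes were. Nedd4 (0.51, SE 0.185) and Huwe1 (0.27, SE 0.104) were not called (adjusted p = 0.246 and 0.260, limma). The trend gave 0.27 for Itch, and with it removed the difference was 0.52 (adjusted p = 0.243), so the call was lost, beside 0.0571% of all genes called. It was also lost with the replicate number as a block (0.0827, limma) and when any 1 of these 12 libraries other than HS 1 or HS_AOS 1 was left out (adjusted p from 0.0717 to 0.152).

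**Figure D4:**
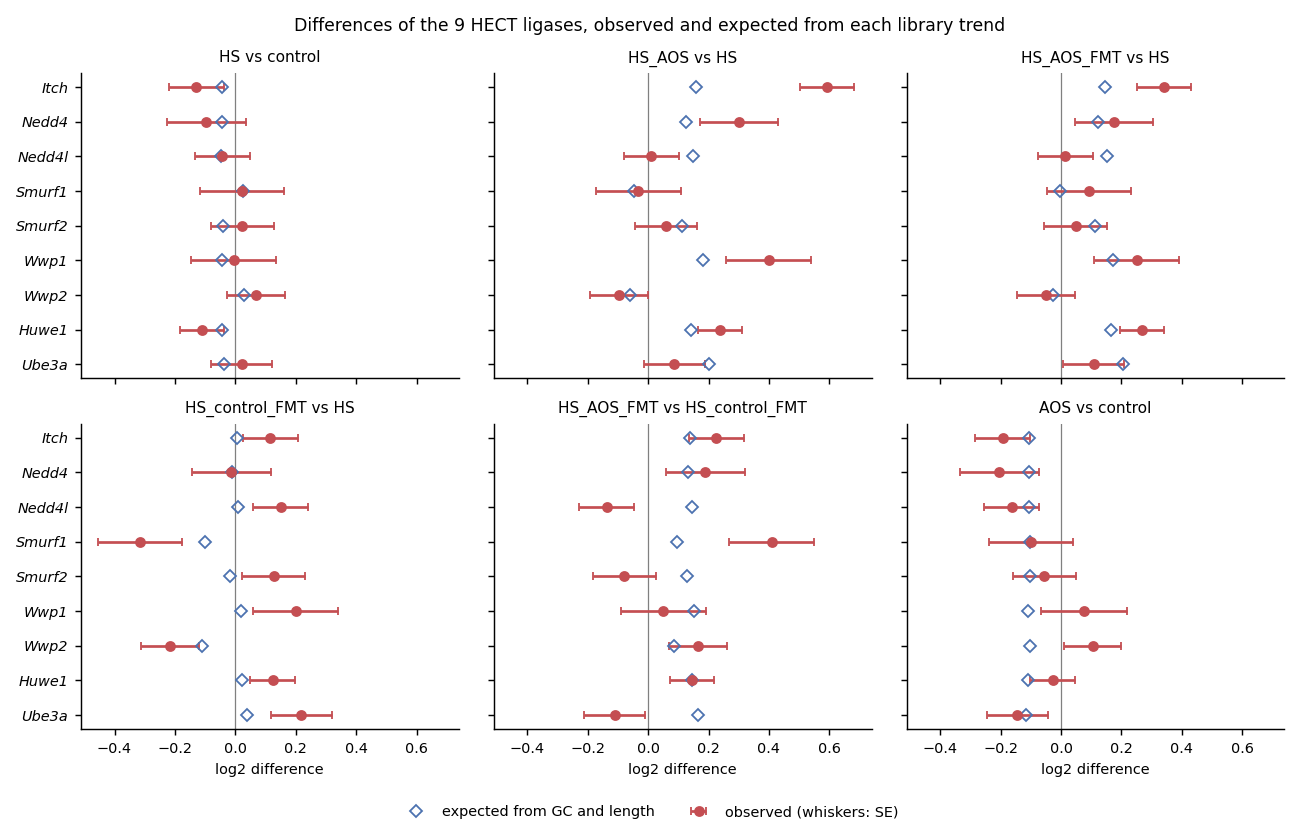
Log2 differences of log2(FPKM + 1) for each ligase in 6 comparisons of 2 groups, with red points and SE whiskers for the fitted value. Open blue diamonds give the value expected from the trend in GC content and length, which includes each library's level. In HS_AOS vs HS, Itch (0.59) lies far right of its diamond (0.16), while in HS_AOS_FMT vs HS_control_FMT Nedd4l and Ube3a lie left of 0 with diamonds to the right.

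The rest of the family was long too: all 16 of the 18 other HECT ligases that were tested exceeded the median length, and 12 were below the median GC content. In HS_AOS against HS, 14 of these 16 had values above 0 (median 0.15, beside 0.01 over all tested genes). Herc3 rose by 0.66 (SE 0.133, adjusted p = 0.0292, limma), from 12.32, 8.91 and 9.74 FPKM in HS to 15.27, 17.49 and 17.55 FPKM in HS_AOS. Every HS_AOS sample was above every HS sample, as for 13.6% of all genes. In HS_AOS_FMT against HS all 16 were above 0 (median 0.18, beside 0.00 over all genes), with Herc3 called (0.72, adjusted p = 0.0288, limma). In HS_AOS_FMT against HS_control_FMT 13 were above 0 (median 0.16, beside 0.07 over all genes), and Herc3 rose (0.65, adjusted p = 0.0188, limma). In that order, 2.3%, 0.977% and 3.99% of all genes were called in these comparisons. None of the 16 was called in the other 4 comparisons, where 0.0646% to 0.751% of all genes were. With the trend removed, 9 of the 16 were above 0 in HS_AOS against HS (median 0.08), where Herc3 was not called (adjusted p = 0.0815, limma). Herc3 was still called in both comparisons of HS_AOS_FMT (adjusted p = 0.0400 against HS and 0.0190 against HS_control_FMT, limma). Of all genes, 28 of 12253 and 456 of 12253 were called there, in that order. The call against HS was lost when each library kept its mean level (0.0910, limma) and with block and trend removal together (0.0984). Its 3 calls without trend removal were lost when some single libraries were left out, though the difference then stayed between 0.57 and 0.84. In HS_AOS against HS, Herc3 was not called without HS 2, HS 3, HS_AOS 2 or HS_AOS 3 (adjusted p from 0.0750 to 0.146, and 0.0515 with the replicate block). Over all genes, 0 of 12361, 0 of 12328, 63 of 12370 and 17 of 12377 were called without these libraries, in that order. In HS_AOS_FMT against HS, Herc3 was not called without any 1 of the 6 compared libraries other than HS 1 (0.0634 to 0.144), nor with the block (0.0548). Over all genes, 0 were called without HS 3, HS_AOS_FMT 2 or HS_AOS_FMT 3, 2 of 12361 without HS 2 and 69 of 12378 without HS_AOS_FMT 1. In HS_AOS_FMT against HS_control_FMT, Herc3 was not called without HS_AOS_FMT 1 or 2 or HS_control_FMT 1 or 2 (0.0532 to 0.0956). Over all genes, 124 of 12378, 65 of 12341, 150 of 12356 and 110 of 12349 were called there, in that order.

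Called partners of these ligases are read against the share called over all tested genes, which was between 0.0646% and 3.99% by comparison, so counts of 0 or 1 in lists this short are no result about the partners. None of the 11 adaptors and regulators, among them Ndfip1, which recruits NEDD4 ligases to membranes, and Smad7, which brings the Smurf proteins to the TGF-beta receptor, was called in any of the 7 comparisons. Nor was any of 6 E1 and E2 enzymes or any of 16 RING and cullin ligases, which hand over ubiquitin without taking it onto themselves. The RING and cullin list had medians of 0.15 in HS_AOS against HS and 0.16 in HS_AOS_FMT against HS, beside 0.01 and 0.00 over all genes. Of 16 known substrates, which include the sodium channel subunits and Smad proteins, Jun alone was called. Jun rose in HS_AOS_FMT against HS_control_FMT (log2 1.20, adjusted p = 0.0393, limma), from 19.9 ± 4.37 to 47.0 ± 9.25 FPKM (SD, n = 3 each). The call was lost without any 1 of the 6 libraries (adjusted p from 0.0678 to 0.137) and with the replicate block (0.0668).

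The 9 did not vary as a unit. Pearson's r over the 18 samples was above 0 for 25 of the 36 pairs, with a median of 0.29. It ran from 0.820 between Itch and Nedd4 to -0.733 between Smurf2 and Wwp2. With the trend removed 17 of 36 were above 0 and the median was -0.03. The genes outside the 9 closest to the mean z-score of the ligases over 18 samples were Rictor (r = 0.927), Sptbn1 (0.920), Sp3 (0.914), Cnot6l (0.909) and N4bp2 (0.906). They were among 263 of 12376 genes with r over 0.8, whose median GC content was 43.4% and median length 5962 bases. With the trend removed another 5 genes came first, Blvrb (0.821), Mmadhc (0.813), Yme1l1 (0.797), Kcnj16 (0.793) and Oaz2 (0.785).

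The 9 kidney markers, among them Lrp2, Umod and Aqp2, were above 0 in every library. Summed kidney markers were 19311 FPKM in control 3 and at least 69602 FPKM elsewhere. Most of that sum was Kap, which ran from 15798 to 155154 FPKM over the libraries. The next highest, Slc34a1, ran from 1762 to 3041 FPKM, so the sum says little about the other markers or about how much kidney a library held. Summed adrenal markers were highest in control 3 (911 FPKM), followed by HS 3 (581), HS_AOS_FMT 2 (413) and HS_AOS_FMT 3 (70.3), beside at most 8.43 FPKM in the other 14 libraries. Summed germ cell markers were 27.5 to 39.2 FPKM in the controls and at most 0.47 FPKM elsewhere. With control 3 left out of the fit, more genes were called in general, and more ligases with them. In HS_AOS against HS these were Itch (adjusted p = 0.00664, limma), Nedd4 (0.0468) and Huwe1 (0.0374), beside 6.74% of all genes. In HS_AOS_FMT against HS they were Itch (0.0356) and Huwe1 (0.0293), beside 5.04% of all genes. In HS_AOS_FMT against HS_control_FMT it was Smurf1 (0.0353), beside 9.3% of all genes.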

How the data were processed

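The authors deposited 1 table of kidney expression with 18 samples and no read counts. The submitters' processing notes name Bowtie 0.12.2 and the build mm10. The program behind the deposited values, with its annotation, strand setting and filters, was not given in the sources used here. Values were deposited by the authors as FPKM, a unit inferred because totals weighted by transcript length varied little between samples (coefficient of variation 0.93%, beside 4.29% for unweighted totals). Depth is unknown, whole reads could not be recovered, and 15773 to 17270 genes were above 0 per sample. Because the table holds no counts, no count test was run.

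Values were taken as log2(FPKM + 1), and fold changes on this scale understate those of low genes. The 12385 genes that reached 1 FPKM in 3 or more samples were fitted with limma 3.58.1 in R 4.3.3, with trended and robust variances, 1 mean per group, all 18 samples and 12 residual degrees of freedom. Benjamini-Hochberg adjustment ran over all these genes, with a threshold of 0.05. GC content and length came from the longest GENCODE M21 transcript (GRCm38) with an entry for 18989 symbols (97.2%), and the trend per library from natural splines with 4 degrees of freedom each. The whole fitted trend, with each library's level, was subtracted. A form that keeps each library's mean level had been computed first, so the whole trend was chosen with that form's values known, and both are reported. The fit was tested on simulated data. By their deviations, each of the 3 HS samples correlated best with the control sample of its own replicate number (0.188, 0.243 and 0.121). In no other comparison of 2 groups did this hold for all 3, and the match rests on these correlations only. In HS_AOS_FMT against HS, numbers 1 (0.312) and 3 (0.110) correlated best with their own number, but number 2 (-0.198) did not. In HS_control_FMT against HS and in AOS against control only number 2 did (0.112 and 0.0437).

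The members and gene lists were chosen with earlier results of these data known. All 9 members are named. Of each list, the rule names up to 4 called genes per comparison, the 4 other HECT ligases of highest level and the 5 genes most like the members; some of these are not reported here. The alternatives tried were a replicate block, trend removal, quantile normalization, other filters, a pseudocount of 0.1, the compared groups alone, each replicate left out in turn, and libraries that stand apart left out. Sequences were read from the GENCODE annotation and transcripts, and no stretch of Nedd4l is shown.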

Additional observations from a re-analysis of the deposited data

Results flagged for a closer look

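The effect of AOS on Itch differed between mice with the diet and STZ and mice without them, by 0.79 on the log2(FPKM + 1) scale (SE 0.128, adjusted p = 0.0300, interaction contrast in limma). It drew attention because the difference itself was tested. HS_AOS lay above HS in all 3 samples (25.96 to 29.42 beside 16.26 to 20.11 FPKM) and AOS below control in all 3 (16.74 to 17.18 beside 18.23 to 21.6 FPKM). The adjusted p was 0.0827 with the replicate number as a block, 0.243 after removal of each library's trend and 0.168 with only these 4 groups in the fit. It lay between 0.0717 and 0.152 when any 1 of the 12 libraries other than HS 1 or HS_AOS 1 was left out.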

How the results depend on the processing

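The log2 difference of Itch in HS_AOS against HS stayed above 0 under every alternative run, from 0.41 to 0.67. Its adjusted p (limma) ranged from 0.00386 without HS 1 to 0.205 with the compared groups alone. No ligase was called there with the block and trend removal together (count 0), with trend removal that kept each library's level (0), with the compared groups alone (0) or without the 3 adrenal-rich libraries (0). Over all genes, these settings called 16 of 12253, 1 of 12253, 1 of 12385 and 0 of 12154, in that order. Leaving out 1 replicate gave 0 to 1 called ligases, 0 without HS 2 or HS 3, where 0 of 12361 and 0 of 12328 genes were called. Quantile normalization called 2 (beside 477 of 12385 genes) and leaving out control 3 called 3 (beside 828 of 12289). In HS_AOS_FMT against HS quantile normalization called 1 (Huwe1, adjusted p = 0.0435) and leaving out control 3 called 2. In HS_AOS_FMT against HS_control_FMT trend removal called 2 and leaving out control 3 called 1.

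For the difference between both AOS effects, 0 ligases were called with the replicate block, with the trend removed in either form, with block and trend removal together, with at least 5 FPKM, with the compared groups alone and without the adrenal-rich libraries, and 0 to 1 when 1 replicate was left out. That count was 1 without HS 1 and without HS_AOS 1, beside 51 of 12352 and 73 of 12341 genes. Over all genes, 7 of 12385 were called with the block, 7 of 12253 with either trend form and 8 of 12253 with block and trend removal together. With at least 5 FPKM it was 0 of 8852, with the compared groups alone 6 of 12385 and without the adrenal-rich libraries 0 of 12154. The replicate block changed no other count of called ligases. It left HS against control, where each HS sample correlated best with the control sample of its own number, at 0.

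With the trend removed, alone or with the replicate block, the median over the 9 was 0.015 in HS_AOS against HS, 0.052 in HS_AOS_FMT against HS, 0.0014 in HS_AOS_FMT against HS_control_FMT and 0.012 for the difference between AOS effects, and in AOS against control it turned to 0.0029. The form that keeps each library's level was computed first, and the whole trend was chosen with that form's values known. With the level kept, the medians over the 9 were -0.0031 (turned) in HS_AOS against HS, 0.047 in HS_AOS_FMT against HS and 0.037 in HS_control_FMT against HS. They were 0.070 in HS_AOS_FMT against HS_control_FMT and 0.10 for the difference between AOS effects. Quantile normalization turned AOS against control to 0.034 and gave 0.11 for the difference between AOS effects. With at least 5 FPKM asked for in 3 samples, which Smurf1 did not meet, the median in HS_AOS against HS was 0.16 over 8 ligases. Leaving out 1 replicate gave medians from -0.089 (without HS 1) to 0.014 in HS against control, from 0.064 to 0.19 (without HS_AOS 1) in HS_AOS against HS and from 0.083 to 0.18 (without HS_AOS_FMT 3; 0.16 without HS_AOS_FMT 1) in HS_AOS_FMT against HS. The rank correlation of the libraries with length ran from -0.195 to 0.243 with the median over a gene's transcripts in place of the longest, and its lowest value was -0.192 with no filter. The causes of these changes were not tested. Depth is unknown, so its limit on small differences could not be given.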
